A study of Mus musculus with 6 samples.

Results

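The genes described here are 10 integrin subunits that fibroblasts express, namely Itga1 and Itga11 (collagen receptors), Itga3 and Itga6 (laminin receptors), Itga4 (fibronectin and VCAM1), Itga5, Itgav, Itgb3 and Itgb5 (receptors of the RGD tripeptide) and Itgb1, the beta subunit that most of these alphas share. They were taken by symbol from a table of 16982 genes, all 10 were found, and all 10 passed the filter on low counts that left 13386 genes for testing. RNA was sequenced from 3 wild-type (WT1 to WT3) and 3 Rnf20 knockout (Rnf20-/-, KO1 to KO3) libraries of reprogrammable cells of the C57BL/6 strain at day 3 of reprogramming. The cells were mouse embryonic fibroblasts (MEF) infected with retroviruses for OCT4, SOX2, KLF4 and C-MYC, and Rnf20 encodes a ubiquitin ligase of histone H2B. Per the study's methods, the MEF carried Rnf20 Flox/Flox alleles and Tamoxifen-cre, a Cre recombinase that is expressed ubiquitously and activated by tamoxifen, and the knockout was induced with 4-OH tamoxifen. The labels list all 6 samples as untreated, and whether the WT cells received the drug is not given in the sources used here. The infected cells were grown on feeder layers of mitomycin-C-treated MEF, which have their own integrin transcripts, and the share of RNA from feeder cells was not measured here.

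An integrin is a receptor made of 1 alpha and 1 beta chain that spans the membrane, binds the extracellular matrix outside the cell and is coupled to actin by talin, kindlin and other adaptors inside it. Which matrix protein is bound depends mainly on the alpha chain, whereas Itgb1 pairs with many alphas and is needed for each of these heterodimers to reach the cell surface. Fibroblasts depend on integrins to spread, to pull on the matrix and to survive, and early in reprogramming they pass through a mesenchymal-to-epithelial transition in which contacts with the matrix and between cells are rebuilt.

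Each library held between 20545442 and 21746898 counts. CPM are counts scaled by the TMM-normalized library size, and 3 counts, the floor used here, equal 0.142 to 0.143 CPM. Rnf20 was measured at 107, 107 and 106 CPM in WT1 to WT3 and at 18.7, 18.5 and 16.4 CPM in KO1 to KO3, a log2 fold change of -2.57 (SE 0.0812, adjusted p = 0.000163 by edgeR's quasi-likelihood test), and all 6 libraries matched their labels. KO3 stood apart from the other knockout libraries, with a chi-square per gene of 92.4 against KO1 and 101 against KO2, where KO1 and KO2 gave 8.57 and pairs of WT libraries 6.04 to 8.92. The 4 Y-linked genes looked for were taken as detected where their sum exceeded 1 CPM, as in WT1 to WT3 and KO2. In KO1 and KO3 their sum did not exceed it. All 11 fibroblast markers listed were at 1 CPM or more, and their summed level was 4682 to 5138 CPM in WT and 5356 to 5591 CPM in knockout libraries. Of these 11 markers, 0 rose and 3 fell at an adjusted p under 0.05, beside 16.4% and 16.6% of all genes tested. The 3 that fell, Thy1, Pdgfra and Fap, were named after their values were seen. By the study's thresholds, which are given below, 2 of them fell as well. Without KO3, 1 fibroblast marker rose and 4 fell, beside 23.9% and 24.2% of all genes. The summed macrophage and leukocyte markers ranged from 84.1 to 151 CPM in WT and were at 120, 82.2 and 296 CPM in KO1 to KO3, the endothelial ones were at 63.7 to 69.5 CPM and 73.4, 61.3 and 35.4 CPM, the epithelial ones at 63.5 to 70.9 CPM and 88.1, 61.8 and 25.6 CPM, and the muscle ones at 610 to 684 CPM and 1088, 1263 and 1527 CPM. KO3 held the highest fibroblast, leukocyte and muscle and the lowest endothelial and epithelial sums, and each comparison of the integrin genes is therefore given without KO3 as well. Of the genes tested, 0 of 13 leukocyte and 0 of 3 endothelial markers were called. Of 9 epithelial markers 1 rose and 1 fell, and of 7 muscle markers 2 rose and 2 fell, beside the same 16.4% and 16.6% of all genes. Without KO3, 1 leukocyte and 1 endothelial marker fell and 0 rose. In that fit 1 epithelial marker rose and 3 fell, and 3 muscle markers rose and 2 fell, beside 23.9% and 24.2% of all genes. Emcn, Myod1 and Myog did not exceed 3 counts in any library. In bulk RNA, a change in the number of cells that express a gene cannot be told apart from a change in its level per cell, and nothing in the labels says that the libraries came from separate cultures or animals, so p-values measure the spread among these samples, which may be technical.

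The promoters of 5 subunits are shown because the results turn on these genes: Itga3, Itgb1, Itgav and Itga11 are called higher in knockout cells below, and Itga1 is the collagen receptor that is not. The sequences are the strand of the gene, 5′ to 3′, ending just before the first annotated base of the gene in GENCODE M21, and were taken from RefSeq (GRCm38.p6). Capitals mark motif matches on either strand.
Itga3 promoter, chr11:95076802-95076964, minus strand: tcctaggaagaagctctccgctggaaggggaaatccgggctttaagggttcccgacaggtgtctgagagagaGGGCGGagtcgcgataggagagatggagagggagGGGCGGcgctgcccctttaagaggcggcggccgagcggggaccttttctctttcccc
Itgb1 promoter, chr8:128685404-128685653, plus strand: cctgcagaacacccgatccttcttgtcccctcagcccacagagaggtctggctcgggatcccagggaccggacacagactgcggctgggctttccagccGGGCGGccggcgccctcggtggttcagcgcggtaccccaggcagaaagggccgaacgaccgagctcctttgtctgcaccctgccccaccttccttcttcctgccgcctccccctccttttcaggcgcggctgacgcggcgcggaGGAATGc
Itgav promoter, chr2:83724147-83724396, plus strand: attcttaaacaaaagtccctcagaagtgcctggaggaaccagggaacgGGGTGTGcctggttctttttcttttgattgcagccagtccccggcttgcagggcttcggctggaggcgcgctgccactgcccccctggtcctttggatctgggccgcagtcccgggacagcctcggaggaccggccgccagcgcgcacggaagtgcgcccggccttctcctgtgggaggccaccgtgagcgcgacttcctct
Itga11 promoter, chr9:62677605-62677825, plus strand: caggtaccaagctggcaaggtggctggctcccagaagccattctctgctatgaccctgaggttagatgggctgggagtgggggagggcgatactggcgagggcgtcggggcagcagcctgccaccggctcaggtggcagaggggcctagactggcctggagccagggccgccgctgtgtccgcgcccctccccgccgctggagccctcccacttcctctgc
Itga1 promoter, chr13:115101965-115102214, minus strand: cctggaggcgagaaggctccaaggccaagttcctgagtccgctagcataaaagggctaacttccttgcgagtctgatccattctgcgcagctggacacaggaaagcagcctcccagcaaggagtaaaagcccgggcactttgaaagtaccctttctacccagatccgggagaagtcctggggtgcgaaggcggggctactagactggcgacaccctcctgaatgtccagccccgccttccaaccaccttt

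Promoter entries were found for 8 of the 10 subunits, all but Itga6 and Itgb3, and the 250 bases before each RefSeq start were searched on both strands. The motifs were the GC box GGGCGG, which was present in 32.7% of 32851 mouse promoters of that length, the CCAAT box (33.8%), the TATA box TATAAA (12.4%), the E-box CACGTG bound by MYC (6.02%), the AP-1 site TGACTCA (4.46%), the TEAD site GGAATG (12.6%), ATTTGCA as part of the octamer (3.56%), the SOX core CATTGT (10.7%) and the KLF core GGGTGTG (6.93%). The GC box was found in Itga3 (3 matches, 2 of them in the printed stretch), Itgb5 (3), Itga5 (2), Itga4 (1) and Itgb1 (1), and not in Itgav, Itga11 or Itga1. The Itgb1 window also held 1 TEAD match, the Itgav window 1 KLF match and the Itga4 window 2 KLF matches, and none of the matches overlapped another. The other 6 motifs were not among the letters of these windows. The GC content of the searched bases was 57.6% for Itga1 and between 64.4% and 68.4% for the other printed promoters, against a median of 52.4% over all promoters.

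In knockout cells 7 of the 10 subunits rose and 0 fell at an adjusted p under 0.05 (quasi-likelihood test of edgeR, Benjamini-Hochberg adjustment over all genes tested), whereas 16.4% of all genes tested rose and 16.6% fell. They were Itga3 and Itga6 (2.59- and 2.01-fold), Itgb1 (1.75-fold), Itgav (1.59-fold), Itga11 (1.53-fold), Itgb5 (1.28-fold) and Itga5 (1.24-fold). For the same 7 genes every knockout library lay above every WT library, which held for 26.6% of all genes tested. The median log2 fold change of the 10 subunits was 0.49, and that of all genes tested was -0.00032. Without KO3, Itgb3 joined these 7, so that 8 of 10 rose and 0 fell, against 23.9% and 24.2% of all genes, with a median of 0.50. Of the 10 subunits, 9 were above every WT library in KO1, 8 in KO2 and 8 in KO3, and the exceptions were Itga1 and Itga4 in KO2, Itga1 in KO1 and Itgb3 and Itga4 in KO3. By ligand class, both laminin receptors, 1 of 2 collagen receptors, 3 of 4 RGD receptor chains and the shared Itgb1 rose, and Itga4 did not pass the test.

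**Figure D1:**
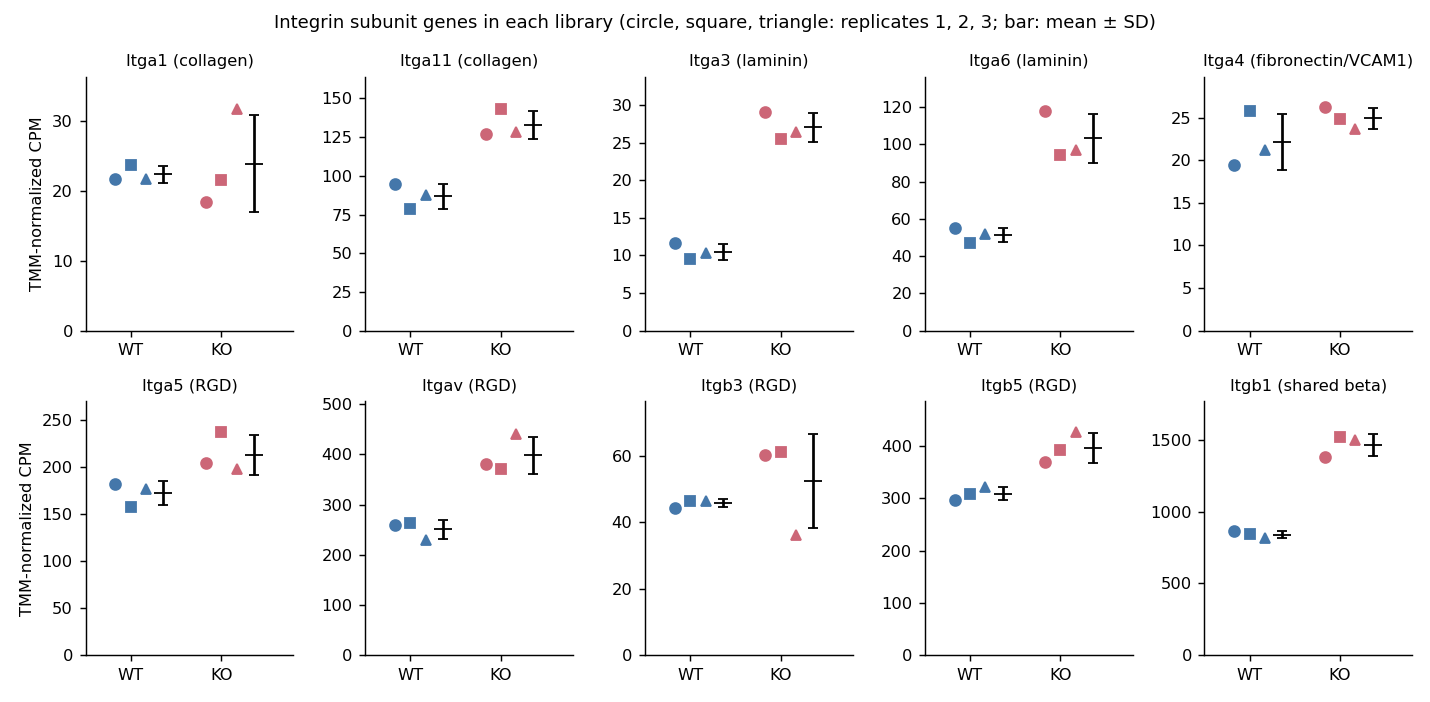
Each panel plots the level of 1 subunit gene in TMM-normalized CPM (vertical axis, from 0) in the WT and knockout (KO) libraries, with a circle, square and triangle for replicates 1, 2 and 3 and a black bar for the mean ± SD (n = 3 per genotype). All 3 knockout points lie above all 3 WT points for Itga3, Itga6, Itga11, Itga5, Itgav, Itgb5 and Itgb1, while KO3 is the highest of 6 for Itga1 and the lowest of 6 for Itgb3.

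Itga3 encodes alpha3, which pairs with Itgb1 as a receptor of basement membrane laminins, and lies on chromosome 11 (95044474 to 95076801, minus strand, GRCm38). It was measured at 11.6, 9.49 and 10.3 CPM in WT1 to WT3 and at 29.1, 25.5 and 26.4 CPM in KO1 to KO3. The groups stayed far apart, with means of 10.4 ± 1.04 and 27.0 ± 1.86 CPM (SD, n = 3 each). The log2 fold change was 1.37 (SE 0.112, 95% interval 1.10 to 1.64, adjusted p = 0.00185), the greatest of the 10 subunits. It was 1.39 without KO3, ranged from 1.30 to 1.45 when any 1 library was left out, and passed the test in all 6 of these fits.

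Itga6 encodes alpha6, the other laminin receptor chain, which pairs with Itgb1 or with Itgb4, the beta chain of hemidesmosomes. It lies on chromosome 2 (71745616 to 71858416, plus strand). Levels were 54.9, 47.2 and 52.1 CPM in WT1 to WT3 and 118, 94.5 and 97.0 CPM in KO1 to KO3. KO1 was the highest library and the groups did not overlap. Mean levels were 51.4 ± 3.89 and 103 ± 12.8 CPM, and on the log2 scale they differed by 1.01 (SE 0.111, 95% interval 0.74 to 1.27, adjusted p = 0.00337), with 1.05 without KO3 and a call in all 6 fits that left out 1 library.

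The collagen receptors gave different results. Itga11 encodes alpha11, which with Itgb1 binds fibrillar collagen and is found mainly on mesenchymal cells. The gene is on chromosome 9 (62677826 to 62783982, plus strand), and its levels were 94.4, 78.5 and 87.5 CPM in WT1 to WT3 and 127, 143 and 128 CPM in KO1 to KO3. All knockout libraries were higher than all WT libraries. Itga11 rose by 0.61 on the log2 scale (SE 0.0946, 95% interval 0.39 to 0.84, adjusted p = 0.00679), it was 0.64 without KO3, and the call held with any 1 library left out.

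Itga1 encodes alpha1, which with Itgb1 binds basement membrane collagen IV in particular. It lies on chromosome 13 (114953096 to 115101964, minus strand), where an exon of Gm49395 on the same strand overlaps it. Its levels were 21.6, 23.7 and 21.7 CPM in WT1 to WT3 and 18.4, 21.5 and 31.6 CPM in KO1 to KO3. KO1 and KO2 lay below all WT libraries and KO3 lay above them, so the direction depended on KO3. The log2 fold change was 0.093 (95% interval -0.38 to 0.56, adjusted p = 0.740) with KO3 and -0.16 (adjusted p = 0.207) without it, neither of which passed the test. The fibroblast, leukocyte and muscle marker sums were also highest in KO3, and the part of such cells in the Itga1 value of that library was not tested.

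Among RGD receptor chains, Itgav encodes alphav, which binds vitronectin, fibronectin and latent TGF-beta with several beta chains. It lies on chromosome 2 (83724397 to 83806916, plus strand) and overlaps an antisense gene, Gm13684. Its levels were 259, 264 and 229 CPM in WT1 to WT3 and 382, 371 and 441 CPM in KO1 to KO3. Every knockout library was above the WT range, and KO3 was the highest. Itgav rose by 0.67 on the log2 scale (SE 0.0973, 95% interval 0.43 to 0.90, adjusted p = 0.00600), and 0.59 without KO3.

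Itgb5 encodes beta5, an alphav partner that serves as a vitronectin receptor, on chromosome 16 (33829665 to 33949338, plus strand). Levels were 296, 309 and 322 CPM in WT1 to WT3 and 370, 393 and 427 CPM in KO1 to KO3. The groups did not overlap, and their means differed by 1.28-fold. Itgb5 rose by 0.36 on the log2 scale (SE 0.0799, 95% interval 0.17 to 0.55, adjusted p = 0.0177). The call was lost without WT1, WT2 or WT3 (adjusted p = 0.0778, 0.0730 and 0.0612 in the quasi-likelihood test), while the log2 fold change stayed between 0.31 and 0.41.

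Itga5 encodes alpha5, which with Itgb1 forms the main fibronectin receptor of fibroblasts, on chromosome 15 (103344286 to 103366763, minus strand). It was at 182, 158 and 177 CPM in WT1 to WT3 and at 204, 237 and 198 CPM in KO1 to KO3. Knockout libraries were above WT ones by a margin that was small beside their spread, with means of 172 ± 12.5 and 213 ± 20.7 CPM. The log2 fold change was 0.31 (SE 0.0967, 95% interval 0.077 to 0.54) and the adjusted p of 0.0495 lay just under the threshold. The call was kept without KO3 (0.36, adjusted p = 0.00363) and lost without WT1 (adjusted p = 0.0990), WT2 (0.167), WT3 (0.126), KO1 (0.0701) or KO2 (0.122), all by the quasi-likelihood test, and the direction was kept in all 6 fits.

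Itgb3 encodes beta3, another alphav partner among these genes, on chromosome 11 (104608000 to 104670476, plus strand). Levels were 44.3, 46.5 and 46.5 CPM in WT1 to WT3 and 60.2, 61.1 and 36.0 CPM in KO1 to KO3. KO1 and KO2 were above all WT libraries and KO3 was below them. The log2 fold change was 0.20 (95% interval -0.27 to 0.67, adjusted p = 0.468) over all 6 libraries, and Itgb3 rose by 0.41 (adjusted p = 0.000424) where KO3 was left out. The endothelial and epithelial marker sums were also lowest in KO3, and their part in this value was not tested.

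Itga4 encodes alpha4, which with Itgb1 binds VCAM1 and a fibronectin segment other than RGD, on chromosome 2 (79255426 to 79333123, plus strand, antisense to Cerkl). Levels were 19.4, 25.8 and 21.2 CPM in WT1 to WT3 and 26.2, 24.8 and 23.7 CPM in KO1 to KO3. WT2 lay within the knockout range, so the groups overlapped. The log2 fold change was 0.17 (95% interval -0.13 to 0.46, adjusted p = 0.323), and 0.20 (adjusted p = 0.178) without KO3.

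Itgb1, on chromosome 8 (128685654 to 128733200, plus strand), was by far the most abundant of the 10 subunits. It was measured at 864, 840 and 813 CPM in WT1 to WT3 and at 1380, 1522 and 1496 CPM in KO1 to KO3. The 2 groups were each tight and did not overlap, with means of 839 ± 25.5 and 1466 ± 75.4 CPM. Itgb1 rose by 0.81 on the log2 scale (SE 0.0781, 95% interval 0.62 to 0.99, adjusted p = 0.00279), 0.79 without KO3, and ranged from 0.78 to 0.85 when any 1 library was left out.

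With the study's own thresholds, which ask for an FPKM over 1 and a change of more than 2-fold beside an adjusted p under 0.01, 2 of the 10 subunits rose, Itga3 and Itga6, beside 1.50% of all genes tested. At an adjusted p under 0.01 alone, 5 rose (Itga3, Itga6, Itgb1, Itgav and Itga11), beside 4.98% of all genes. In an alternative fit, detection of the Y-linked genes stood beside genotype. Since all WT libraries held them, the genotype effect in that fit rests on KO2 alone, and Itga3 and Itgb1 rose (adjusted p = 0.0463 for each) and 0 subunits fell, beside 0.598% and 0.217% of all genes. The other 5 of the 7 subunits kept a positive log2 fold change in this fit, with adjusted p of 0.0639 (Itga11), 0.0620 (Itga6), 0.104 (Itga5), 0.0955 (Itgav) and 0.169 (Itgb5). DESeq2 called the 7 subunits named above, beside 17.4% of the genes it tested.

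**Figure D2:**
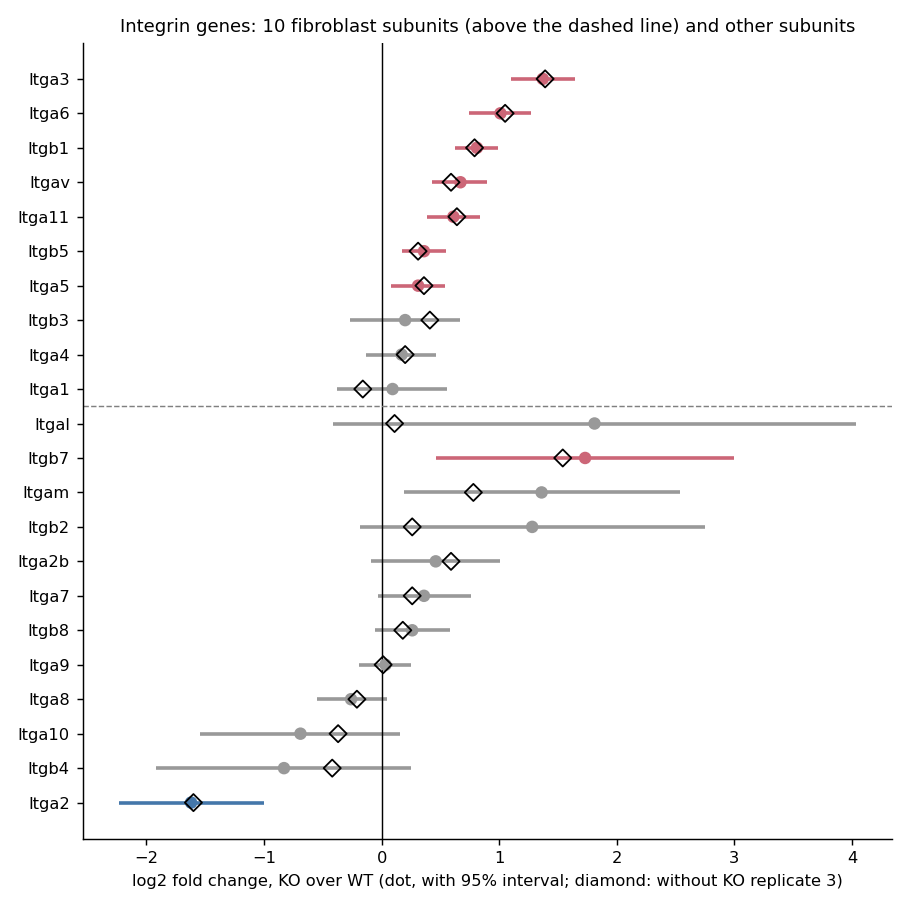
Dots show log2 fold changes, knockout over WT (horizontal axis), with its 95% interval for the 10 fibroblast subunits above the dashed line and 12 other integrin subunits below it, red where higher and blue where lower at an adjusted p under 0.05 and grey otherwise. Diamonds show the value without KO3, which lies close to the dot for Itga3, Itga6, Itgb1 and Itga11 and apart from it for Itgb3 and Itga1.

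Levels of different genes were compared per kilobase of transcript (RPKM from the TMM-normalized CPM and the deposited gene lengths). In WT, Itgb1 came first at 215 ± 6.54 RPKM (SD, n = 3), followed by Itgb5 at 99.9 ± 4.19, Itga5 at 39.3 ± 2.85, Itgav at 33.9 ± 2.54, Itga11 at 17.5 ± 1.60, Itga6 at 8.46 ± 0.640 and Itgb3 at 6.66 ± 0.183 RPKM. Itga4, Itga3 and Itga1 closed the order at 2.27 ± 0.334, 2.15 ± 0.214 and 2.0 ± 0.104 RPKM, and neighbours among these 3 overlapped across libraries. In knockout cells the means were 376 ± 19.4 RPKM for Itgb1, 128 ± 9.29 for Itgb5, 53.8 ± 5.08 for Itgav, 48.6 ± 4.73 for Itga5, 26.7 ± 1.89 for Itga11, 17.0 ± 2.11 for Itga6, 7.63 ± 2.08 for Itgb3, 5.56 ± 0.382 for Itga3, 2.55 ± 0.127 for Itga4 and 2.14 ± 0.616 for Itga1. Itgav and Itga5, Itgb3 and Itga3, and Itga4 and Itga1 overlapped there. Itga3 thus left the group of the lowest subunits, and the rest of the order stayed as it was except for Itgav and Itga5. The authors' FPKM values gave the same order in knockout cells, and in WT placed Itgav above Itga5 and Itga3 last.

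The composition of the alpha chains was compared over 12 alpha subunits (Itga1 to Itga11 and Itgav) as a share of their summed RPKM. An exact permutation test of 3 against 3 libraries cannot give a two-sided p under 0.100, so the 22 shares and ratios computed were not tested. Part of them is given here by value. Summed alpha level was 118 ± 4.52 RPKM in WT and 168 ± 3.56 RPKM in knockout cells. Itga3 and Itga6 together held 9.31%, 8.55% and 9.18% of it in WT1 to WT3 and 15.5%, 12.2% and 12.7% in KO1 to KO3. The share of Itga3 and Itga6 was thus above the WT range in every knockout library. With Itga7 added, it was 12.1 ± 0.618% in WT and 16.3 ± 1.48% in knockout cells, also without overlap. The RGD class (Itga5, Itga8 and Itgav) held 65.8 ± 1.05% and 63.1 ± 1.17%. Itga7, Itga8, Itga9 and Itga10 together held 9.78 ± 0.709% and 6.70 ± 0.492%. Both of these shares were below the WT range in every knockout library. Itga5 held 33.8%, 31.7% and 34.6% in WT and 28.4%, 31.6% and 26.8% in knockout libraries, below the WT range although its level was higher. The shares of Itgav (28.9 ± 2.39% and 32.1 ± 3.02%) and of Itga11 (14.8 ± 0.837% and 15.9 ± 0.881%) overlapped between genotypes. The RPKM of Itgb1 over the summed alphas was 1.81, 1.90 and 1.79 in WT1 to WT3 and 2.16, 2.29 and 2.28 in KO1 to KO3, so this ratio was higher in each knockout library.

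**Figure D3:**
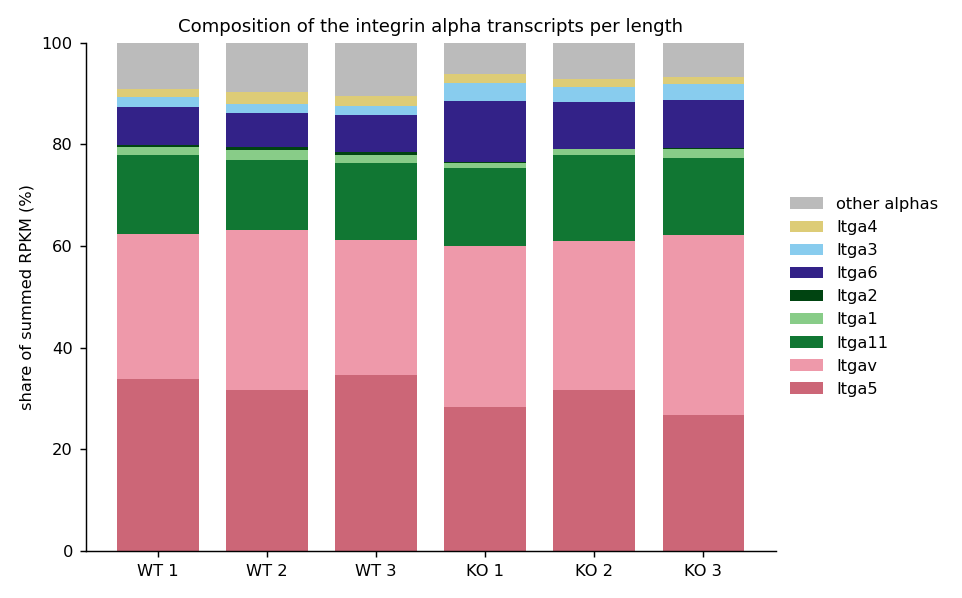
Each bar is 1 library and shows the share (%) of the summed RPKM of 12 integrin alpha subunits that each gene takes, with Itga7, Itga8, Itga9 and Itga10 joined as other alphas. The Itga6 and Itga3 segments are taller in all knockout bars (12.2% to 15.5% together) than in all WT bars (8.55% to 9.31%), and the Itga5 segment is shorter.

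Ratios between alpha and beta chains that pair with each other were computed on the same RPKM scale. Itgav over Itgb5 was 0.340 ± 0.0370 in WT and 0.419 ± 0.0216 in knockout cells, without overlap. Itgav over Itgb3 was 5.43, 5.27 and 4.58 in WT1 to WT3 and 5.90, 5.63 and 11.4 in KO1 to KO3, where KO3 set most of the difference between the means. Itga6 over Itgb4 was 1.20, 1.15 and 1.10 in WT and 3.24, 3.12 and 11.2 in knockout libraries. Between the laminin receptor alphas, which do not pair with each other, Itga6 over Itga3 was 3.94 ± 0.127 in WT and 3.05 ± 0.168 in knockout cells.

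The other integrin subunits of the mouse were read from the same fit. Of 17 listed, 15 were in the table and 12 were tested (Itgae, Itgax and Itgb6 were not), of which 1 rose and 1 fell, beside 16.4% and 16.6% of all genes tested, with a median log2 fold change of 0.31 that was 0.15 without KO3. Itga2, the alpha2 chain of the platelet and epithelial collagen receptor, fell from 4.04, 4.32 and 3.80 CPM in WT1 to WT3 to 1.67, 0.997 and 1.29 CPM in KO1 to KO3 (log2 fold change -1.62, SE 0.258, adjusted p = 0.00739), and this call held with any 1 library left out. Itga2 and Itga11, both collagen receptors, therefore changed in opposite directions, and Itga11 over Itga2 in RPKM was 30.7 ± 4.14 in WT and 152 ± 49.3 in knockout cells. Itgb7, a leukocyte beta chain, rose from 0.364 to 1.22 CPM (1.73, adjusted p = 0.0466), a call that was lost without WT2, WT3, KO1 or KO2 (adjusted p = 0.124, 0.157, 0.0818 and 0.0735). Its raw counts were only 14, 3 and 6 in WT1 to WT3 and 24, 21 and 32 in KO1 to KO3. WT2 was thus at the floor of 3 counts. Itgb4 was at 46.7, 42.0 and 48.6 CPM in WT and at 37.2, 31.0 and 8.86 CPM in KO1 to KO3 (-0.83, adjusted p = 0.196), and fell where KO3 was left out (-0.42, adjusted p = 0.00429). The epithelial marker sum was also lowest in KO3, and its part in the Itgb4 value was not tested.

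Itgal, Itgam and Itgb2, chains of leukocyte integrins, were highest in KO3, as the leukocyte markers were, and the part of leukocytes in their values was not tested. They were at 5.19, 6.33 and 7.95 CPM in KO3 and at no more than 0.955, 3.20 and 2.24 CPM in any other library, with log2 fold changes of 1.81, 1.36 and 1.28 (adjusted p = 0.176, 0.0739 and 0.151) that did not pass the test. Without KO3 these log2 fold changes were 0.11, 0.78 and 0.26, and without KO2 Itgam rose (1.70, adjusted p = 0.0366) and Itga8 fell (-0.39, adjusted p = 0.0414). The remaining 6 did not pass over all libraries: Itga2b (0.46, adjusted p = 0.165), Itga7 (0.36, 0.136), Itga8 (-0.26, 0.159), Itga9 (0.033, 0.805), Itga10 (-0.69, 0.176) and Itgb8 (0.26, 0.168). Nor did they without KO3, where the log2 fold changes of these 6 were 0.59, 0.26, -0.21, 0.013, -0.37 and 0.18 in the same order.

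Ligands of the receptors were described by lists for each class. Of 11 laminin chains tested, 2 rose and 1 fell, beside 16.4% and 16.6% of all genes tested, with a median of -0.061. Lamb3, which encodes a beta chain of epithelial laminin, rose from 3.12 ± 0.852 to 6.67 ± 0.875 CPM (1.09, adjusted p = 0.0196). Lama3, which encodes an alpha chain, was at 9.83 CPM in WT and 11.4 CPM in knockout cells (0.21, adjusted p = 0.721), but it rose without KO3 (0.59, adjusted p = 0.00395), which held 4.52 CPM where KO1 and KO2 held 13.3 and 16.3 CPM. Lama4, a chain of mesenchymal and vascular laminins, fell (-0.31, adjusted p = 0.0136). Without KO3, 4 laminin chains rose and 4 fell, beside 23.9% and 24.2% of all genes, with a median of 0.11. In each fit without KO1, WT1, WT2 or WT3, 1 rose, and 0 fell in each fit without a WT library. The shares of all genes in the fits without KO1 or a WT library are not given here.

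Of 11 collagen genes tested, 1 rose and 0 fell, beside 16.4% and 16.6% of all genes tested, and the median was 0.0070. Col5a2, a chain of the collagen V that nucleates fibrils, was the one that rose (0.70, adjusted p = 0.0139). KO3 was the lowest library for every tested collagen gene except Col5a2. Col6a3, named after its values were seen, was at 1234, 1168 and 1208 CPM in WT1 to WT3. In KO1 to KO3 it was at 1142, 997 and 132 CPM (-0.67, adjusted p = 0.460 by the quasi-likelihood test). The cause of the low values in KO3 was not tested. Without KO3, 3 collagen genes rose and 1 fell, beside 23.9% and 24.2% of all genes, with a median of 0.12. Without WT2 or WT3 the count that rose was 0, and the share of all genes in these fits is not given here.

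Of 19 tested ligands of RGD receptors and of alpha4, 5 rose and 0 fell, beside 16.4% and 16.6% of all genes tested, with a median of 0.39. Thbs1, encoding the matricellular protein thrombospondin 1, rose from 2564, 2292 and 2430 CPM in WT1 to WT3 to 6758, 7001 and 7978 CPM in KO1 to KO3 (1.58, adjusted p = 0.00177). Ctgf, a matricellular integrin ligand, rose from 77.0 ± 4.28 to 255 ± 62.5 CPM (1.73, adjusted p = 0.00287). Spp1, which encodes osteopontin, rose by 1.15 (adjusted p = 0.00502) and Tnc, which encodes tenascin C, by 0.58 (adjusted p = 0.00565) on the log2 scale. The fifth was Cyr61, named after its values were seen (0.52, adjusted p = 0.0110). Fn1, fibronectin, was at 4034, 3458 and 3744 CPM in WT and at 5542, 6978 and 4049 CPM in KO1 to KO3, so that KO3 lay between WT1 and the other knockout libraries, and did not pass the test (0.56, adjusted p = 0.0697). Without KO3 it rose by 0.74 (adjusted p = 0.000212), and 11 of the 19 ligands rose and 1 fell, beside 23.9% and 24.2% of all genes.

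Inside the cell, 36 adaptors and focal adhesion genes were tested, of which 13 rose and 1 fell, beside 16.4% and 16.6% of all genes tested, with a median of 0.24. Among those that rose with the lowest p were Nedd9, a scaffold of the Cas family (0.83, adjusted p = 0.00356), Parvb, a member of the complex with integrin-linked kinase (1.10, adjusted p = 0.00360), and Ptk2b, a kinase related to focal adhesion kinase (0.89, adjusted p = 0.00473). Kank1, which binds talin at the rim of adhesions, fell (-0.50, adjusted p = 0.0170). Without KO3, 18 of these genes rose and 5 fell, beside 23.9% and 24.2% of all genes. The count that rose was 8, 7, 6 and 6 without KO2, WT1, WT2 and WT3, and 0 fell without WT1 or WT3. The shares of all genes in the fits without KO2 or a WT library are not given here.

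Of 14 tetraspanins and other membrane partners of integrins, 7 rose and 1 fell, beside 16.4% and 16.6% of all genes tested, with a median of 0.42. Those with the lowest p were Cd9 and Cd81, tetraspanins (0.43 and 0.31, adjusted p = 0.0129 and 0.0160), Bsg, the immunoglobulin-type protein basigin (0.81, adjusted p = 0.0133), and Cd44, the hyaluronan receptor (1.18, adjusted p = 0.0196). Cd82, a tetraspanin, fell (-0.44, adjusted p = 0.0113). Cd44 was at 130, 140 and 127 CPM in WT1 to WT3 and at 243, 212 and 446 CPM in KO1 to KO3, and Cd151, the tetraspanin partner of alpha3 and alpha6, was at 49.1, 40.3 and 43.4 CPM and at 80.0, 70.4 and 151 CPM (1.18, adjusted p = 0.0233). Cd151 was named after its values were seen. KO3 was the highest library for both. Without KO3, 9 partners rose, beside 23.9% of all genes, and 0 rose in the fits without WT1, WT2 or WT3. The share of all genes that rose without a WT library is not given here, so that count has no background. In those fits the adjusted p of Rnf20 was 0.00552 to 0.00656 by the quasi-likelihood test, against 0.000163 over all libraries. Why the partners lost their calls was not tested. The call of Cd82 was lost without WT3.

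**Figure D4:**
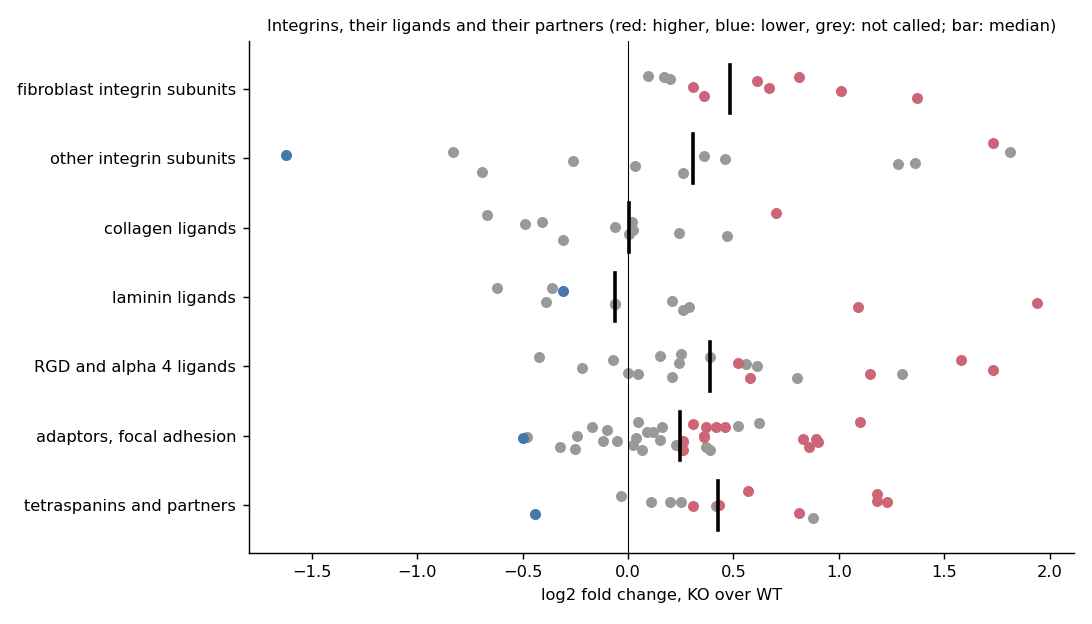
Each dot is 1 tested gene at its log2 fold change, knockout over WT (horizontal axis), in rows for the 10 fibroblast subunits, the other integrin subunits, 3 ligand lists, the adaptors and the membrane partners, red where higher and blue where lower at an adjusted p under 0.05 and grey otherwise, with a black bar at the median. The medians are 0.49 for the fibroblast subunits, 0.39 for RGD and alpha4 ligands, 0.42 for the partners and near 0 for collagen (0.0070) and laminin (-0.061) ligands.

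Other genes had profiles over the 6 libraries close to those of these subunits. For Itgb1 the genes with the highest Pearson r of log2 CPM were Atp6ap2 (0.9994), Mapkapk3 (0.9986) and Tpd52l1 (0.9985), and 680 of 10716 genes compared exceeded 0.95. For Itga3 they were Mllt3 (0.9986), Ccnd1 (0.9983) and Abcc5 (0.9976), and 538 genes exceeded 0.95. The 6 points share the split by genotype and the same libraries, and these values are a description.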

How the data were processed

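The authors prepared stranded poly(A) libraries (TruSeq Stranded mRNA), sequenced them in pairs and aligned reads to GRCm38/mm10 with HISAT2 2.1.0. The authors deposited raw counts per gene for 16982 genes (425 predicted loci), with gene lengths. The counting program and its strand setting are not given in the sources used here. The authors deposited FPKM values from Cufflinks 2.1.1 for 12633 genes beside the same counts, used here only for the order of levels and the FPKM threshold. Their log2 fold changes and adjusted p-values of knockout over WT were not used. No per-sample column was left unmapped (0).

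In R 4.3.3, edgeR 4.0.16 was run on the counts of all genes with TMM factors and filterByExpr at its defaults, and genotypes were compared by the quasi-likelihood test without covariates, with Benjamini-Hochberg adjustment over 13386 genes. Calls were made at an adjusted p under 0.05. CPM and RPKM use TMM-normalized library sizes, and log2 CPM a prior count of 2. The SE is the absolute log2 fold change over the square root of F. Common dispersion was 0.0353. The fit was tested on simulated data. Groups and replicate numbers came from the sample labels. Same-numbered WT and knockout libraries did not deviate together (r = -0.0656, 0.0366 and 0.0109), so the numbers were not used as pairs. The text names all 10 subunits, Rnf20, the tested other subunits, up to 4 called genes in each direction per list by lowest p (some results under this rule are not reported here), marker lists by counts and sums, and the 3 genes most like Itgb1 and Itga3 among those with a mean of at least 5 CPM. The subunits and lists were chosen with earlier results of these data known. Alternatives were RLE factors, library size only, DESeq2 1.42.0, other filters and thresholds, the replicate block, a term for Y-linked genes, and leaving out each library. The floor of 3 counts covers counting error only, and the 95% intervals of log2 fold changes come from the SE, which includes the spread between libraries.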

Additional observations from a re-analysis of the deposited data

How the results depend on the processing

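The direction of 9 subunits was kept in every alternative run, and Itga1 went from 0.093 to -0.16 without KO3 and to -0.055 with the term for Y-linked genes, without passing the test (-0.16 to 0.25 with each library left out). The number of the 10 subunits that rose (7) was 7 with RLE factors, DESeq2 or a stricter filter, 6 with library size only or no filter, 5 at an adjusted p under 0.01, and moved to 2 with the Y-linked term and to 2 with the study's thresholds. With the replicate block it was 6, where Itga5 lost its call (adjusted p = 0.115 by the quasi-likelihood test). The block also set the other subunits that rose to 0 and the RGD and alpha4 ligands that fell to 1. The share of all genes tested that rose was 17.4% with DESeq2 and 4.98% at an adjusted p under 0.01. It was 0.598% with the Y-linked term and 1.50% with the study's thresholds. The shares with RLE factors, library size only, other filters or the replicate block are not given here, so those counts have no background.

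Among the lists, the other subunits that rose (1) were 0 with library size only, no filter, a stricter filter, the Y-linked term, an adjusted p under 0.01 or the study's thresholds, and 2 with DESeq2, and those that fell (1) were 0 with the stricter filter, the Y-linked term or the study's thresholds. With the Y-linked term, 0 collagen ligands, 1 laminin ligand, 2 RGD and alpha4 ligands, 1 adaptor and 0 partners rose, and 0 laminin ligands, 0 adaptors and 0 partners fell. Of all genes, 0.598% rose and 0.217% fell in that fit. At an adjusted p under 0.01 the counts that rose were 0 collagen and 1 laminin ligand, 6 adaptors and 0 partners, and 0 laminin ligands, 0 adaptors and 0 partners fell. At that threshold 4.98% of all genes rose, and the share that fell is not given here. The study's thresholds gave 0 collagen, 1 laminin and 3 RGD and alpha4 ligands, 1 adaptor and 0 partners that rose, and 0 laminin ligands, 0 adaptors and 0 partners that fell. By these thresholds 1.50% of all genes rose, and the share that fell is not given here. With library size only, and with DESeq2, 1 RGD and alpha4 ligand and 5 adaptors fell. The shares of all genes that fell in these fits are not given here, so these counts have no background. Itga2 and Itgb7 were under the 5 CPM that the stricter filter asks for, so they were left out of that fit and not tested in it. Under the study's thresholds, Itga2 missed only the FPKM over 1, with means of 0.617 in WT and 0.208 in knockout cells. The cause of the other moves was not tested.

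With each library left out in turn, 5 to 8 of the 10 subunits rose and 0 to 0 fell. Among these fits, the shares of all genes called are given only for the one without KO3. The ranges of genes that rose and fell were 0 to 1 and 1 to 2 for the other subunits, 0 to 3 and 0 to 1 for collagen ligands, 1 to 4 and 0 to 4 for laminin ligands, 4 to 11 and 0 to 1 for RGD and alpha4 ligands, 6 to 18 and 0 to 5 for adaptors and 0 to 9 and 0 to 1 for partners. Itga9 (0.033) turned to -0.028 with library size only and to -0.0067 without WT2, and ranged from -0.0067 to 0.056 over these fits. Itgal and Itgb2 turned to -0.69 and -3.8e-05 with the Y-linked term. None of these 3 passed the test in any alternative run.

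The genotype cannot be told apart from the drug or from any batch that follows the groups, and 1 of the 3 knockout libraries stands apart. The 95% intervals of Itga1, Itga4 and Itgb3 run from -0.38 to 0.56, -0.13 to 0.46 and -0.27 to 0.67. Neither rises nor falls within these log2 limits were excluded. Of the tests of single genes under the alternatives, 487 kept their direction and side of the threshold, 96 lost the threshold, 5 gained it and 6 turned.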
